A study of Homo sapiens with 20 samples.

Results

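The transition from an epithelial to a mesenchymal state (EMT) was followed here through 10 genes in MCF 10A cells that had received a miRNA mimic: the transcription factors SNAI2, SNAI1, ZEB1 and TWIST1, the cadherins CDH1, CDH2 and CDH3, and the mesenchymal genes VIM, FN1 and SPARC. The 10 genes were taken by name, and every probe annotated to them in the tables before normalization was used, which gave 14 probes of 47323, and 10 of 20046 named genes, on the arrays of the miR-1 experiment and 14 of 48803 probes, and 10 of 18665 named genes, on those of the miR-4728-3p experiment. SNAI2 was chosen by its lower value with the miR-1 mimic and CDH2 by its lower value with the miR-4728-3p mimic, so these 2 differences are given as descriptions, without a test. The other genes were chosen for their role, but with the results of these arrays known.

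MCF 10A cells are human mammary epithelial cells that divide without limit and form no tumors. In one experiment 4 cultures received a mimic of hsa-miR-1-3p and 4 a non-targeting control. In the other, 6 cultures received a mimic of hsa-miR-4728-3p, a miRNA encoded within the HER2 gene, and 6 a control siRNA labelled as non-targeting. All 20 cultures were transfected with Lipofectamine. The labels give a dose of 100 nM, whereas the methods name 25 nM or 100 nM, and the array cells were harvested 32 hours after transfection. The methods name the non-targeting control for the miR-1 arrays, and also list a 25 nt control oligonucleotide without saying in which assays it was used. The methods describe the replicates as biological, and all come from 1 cell line. Total RNA was hybridized to Illumina HumanHT-12 bead arrays, which according to the methods were v4.0 in the miR-1 experiment and v3.0 in the miR-4728-3p experiment, while the labels name v3.0 throughout. No untransfected cells were analysed here, so each difference below is between a mimic and its control at 1 dose and 1 time point.

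In EMT, epithelial cells loosen their junctions, lose apical and basal polarity and take on a motile shape. SNAI1 and SNAI2 (Slug), ZEB1 and TWIST1 are transcription factors known to drive this change, in part by repression of CDH1. CDH1 encodes E-cadherin, the adhesion molecule of epithelial junctions, and CDH2 encodes N-cadherin, which replaces it in mesenchymal cells. CDH3 encodes P-cadherin, an adhesion molecule of basal epithelia. VIM encodes the intermediate filament vimentin, FN1 the matrix protein fibronectin, and SPARC a secreted protein that binds collagen. Cells of the basal mammary layer are known to express SNAI2, and cultured MCF 10A cells to express vimentin beside E-cadherin.

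A miRNA directs the silencing complex to transcripts that pair with its seed, usually bases 2 to 8 from the 5′ end. The mature sequences of the transfected miRNAs are shown because they define the treatments, with the seed in capitals. They were taken from RefSeq (GRCh38.p14), where miR-1 is encoded at chr20:62554351-62554372 on the plus strand and at chr18:21829015-21829036 on the minus strand, and miR-4728-3p at chr17:39726537-39726561 on the plus strand.
hsa-miR-1-3p: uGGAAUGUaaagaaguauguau
hsa-miR-4728-3p: cAUGCUGAccucccuccugccccag
Of 2370 mature miRNA names in the table, 2 others shared the seed of miR-1 and none shared that of miR-4728-3p. They are shown because a mimic of either would carry the same seed.
hsa-miR-206: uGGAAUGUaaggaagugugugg
hsa-miR-613: aGGAAUGUuccuucuuugcc
The study is about a further, internal seed of miR-4728-3p, and bases 6 to 12 are marked in capitals for it.
hsa-miR-4728-3p: caugcUGACCUCccuccugccccag
A transcript site for the miR-1 seed would read ACATTCC, one for the miR-4728-3p seed TCAGCAT, and one for the internal region GAGGTCA. Whether the transcripts of the 10 genes hold such sites was not analysed here.

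The values below are log2 intensities after background correction and quantile normalization of the arrays of 1 experiment, so a difference of 1 is a doubling. They compare arrays within an experiment and not probes with each other. A gene counted as lower or higher when its adjusted p was under 0.05 in limma, with adjustment over all probes above an intensity filter. The filter kept 22030 probes of 11898 genes in the miR-1 experiment and 20910 probes of 11817 genes in the miR-4728-3p experiment. Before normalization, an array of the miR-1 experiment had a median intensity of 92 to 121, with control 4 the dimmest, and an array of the miR-4728-3p experiment one of 101 to 135, with controls 3 and 5 the dimmest. The typical standard error of a log2 fold change was 0.09 in the miR-1 experiment and 0.11 in the miR-4728-3p experiment. With this number of arrays, changes larger than these errors could also miss the threshold. VIM with miR-1, at -0.26 with a standard error of 0.08, did not pass.

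In both experiments the same 7 genes had at least 1 probe above the filter: SNAI2, TWIST1, CDH1, CDH2, CDH3, VIM and SPARC. SNAI1, ZEB1 and FN1, with 5 probes in all, lay under it. Their log2 intensities ran from 5.72 to 6.29 in the miR-1 experiment, where the filter stood at 6.17, and from 5.69 to 6.70 in the miR-4728-3p experiment, where it stood at 6.36. The mimic and control arrays of these probes overlapped throughout, and their log2 fold changes lay between -0.05 and 0.01 with miR-1 and between -0.08 and 0.10 with miR-4728-3p. With all probes fitted, their lowest adjusted p in limma was 0.946 with miR-1 and 0.862 with miR-4728-3p. At intensities this close to the floor of the arrays, a change in SNAI1, ZEB1 or FN1 could have gone unseen.

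With the miR-1 mimic, CDH1 was higher and SNAI2 lower than in the control. These 2 genes, TWIST1, and VIM on 1 of its 2 probes had no overlap between the groups, beside 10.7% of all genes. CDH1 was 1.41-fold higher and SNAI2 1.60-fold lower. VIM and TWIST1 were lower by smaller amounts that did not pass the threshold, and the intervals of CDH2, CDH3 and SPARC included 0. In these bulk samples, fewer cells that express a gene and less RNA of it per cell cannot be told apart.

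**Figure D1:**
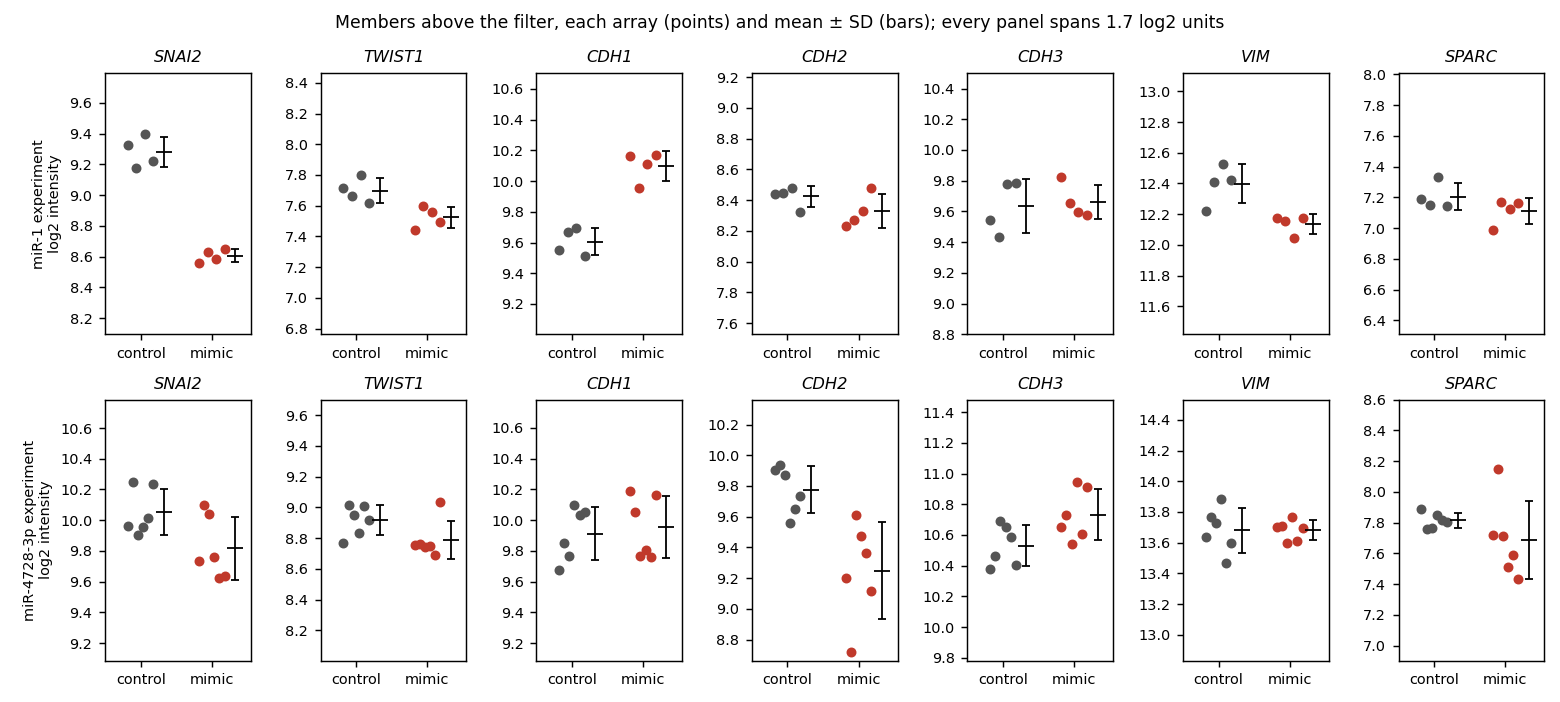
Log2 intensity of the 7 genes above the filter on each array (points), with mean and SD (bars), for control and mimic arrays of the miR-1 experiment (top) and the miR-4728-3p experiment (bottom). Every panel spans the same range of log2 units. In the miR-1 experiment 4 of the 7 genes, SNAI2, CDH1, TWIST1 and VIM, had groups without overlap, beside 10.7% of all genes. In the miR-4728-3p experiment 5 of 6 mimic arrays lie below every control for CDH2, TWIST1 and SPARC.

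SNAI2 was measured by 2 probes. On the brighter one, ILMN_2082585, the 4 controls read 9.33, 9.17, 9.40 and 9.22 and the 4 mimic arrays 8.56, 8.63, 8.59 and 8.65. All 4 mimic arrays lay below the lowest control, and the mimic arrays lay closer together than the controls. The means were 9.28 ± 0.10 in the control and 8.61 ± 0.04 with the mimic (SD, n = 4 each), a log2 fold change of -0.67. This log2 fold change ranked 13 from the lowest of the 11898 genes tested, a description, since SNAI2 was chosen by this value. On the other probe, ILMN_1655740, the controls read 7.97, 8.13, 8.24 and 8.28 and the mimic arrays 7.73, 7.68, 7.74 and 7.55, a log2 fold change of -0.48 with no overlap. The 2 probes thus gave the same direction and different sizes. In the unnormalized intensities of the brighter probe, the controls spanned 488 to 781 and the mimic arrays 393 to 493, and the slight overlap came from control 4, the dimmest array of the experiment.

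TWIST1, a basic helix-loop-helix factor, read 7.71, 7.66, 7.80 and 7.62 in the controls and 7.44, 7.60, 7.56 and 7.50 with the miR-1 mimic. The groups did not overlap, but the highest mimic array and the lowest control were only 0.02 apart. The log2 fold change was -0.17 ± 0.08 (SE), with a 95% interval of -0.33 to -0.01 before any adjustment and an adjusted p of 0.360 in limma.

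CDH1 was the member that passed the threshold in this experiment. The controls read 9.55, 9.67, 9.69 and 9.51 and the mimic arrays 10.16, 9.95, 10.11 and 10.17. All 4 mimic arrays lay above the highest control, and the unnormalized intensities did not overlap either, with 583 to 953 in the controls and 1040 to 1291 with the mimic. The means were 9.61 ± 0.09 and 10.10 ± 0.10 (SD, n = 4 each). The log2 fold change was 0.49 ± 0.08 (SE; 95% interval 0.32 to 0.66), with an adjusted p of 0.00481 in limma. CDH1 ranked 77 from the highest among the 11898 genes. Its adjusted p ran from 0.00158 to 0.0472 over the other processing settings and from 0.00518 to 0.0255 when each array was left out in turn.

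The other cadherins did not pass the threshold. CDH2 read 8.44, 8.45, 8.48 and 8.33 in the controls and 8.23, 8.27, 8.33 and 8.48 with the miR-1 mimic. Mimic array 4 was as high as the highest control, and the groups overlapped. Its log2 fold change was -0.10 (95% interval -0.27 to 0.07), with an adjusted p of 0.708 in limma. CDH3 differed by 0.03 (95% interval -0.18 to 0.23), with an adjusted p of 0.953 in limma, between arrays that ranged from 9.43 to 9.78 in the controls and from 9.58 to 9.82 with the mimic. For both genes the interval excludes a change as large as that of CDH1.

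Among the mesenchymal genes, VIM was measured by 2 probes. On ILMN_1782538 the controls read 12.22, 12.41, 12.53 and 12.42 and the mimic arrays 12.18, 12.15, 12.04 and 12.18. All mimic arrays lay below the lowest control, control 1, though by a narrow margin. The log2 fold change was -0.26 ± 0.08 (SE; 95% interval -0.43 to -0.08), with an adjusted p of 0.153 in limma. On the other VIM probe, ILMN_2058251, the groups overlapped and the log2 fold change was -0.10 with an adjusted p of 0.730 in limma, so the separation was seen on 1 probe of 2. SPARC read 7.15 to 7.33 in the controls and 6.99 to 7.17 with the mimic, and its groups overlapped. Its log2 fold change was -0.10 (95% interval -0.26 to 0.07), with an adjusted p of 0.700 in limma.

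Leaving SNAI2 aside, 1 of the 6 members tested in the miR-1 experiment passed the threshold, upward, and none downward, where 2.69% of all genes tested passed it in either direction, 1.24% downward and 1.45% upward. At an unadjusted p under 0.05 in limma, TWIST1 and VIM were lower and CDH1 higher. Counted with SNAI2, 4 of the 7 members had groups that did not overlap, beside 10.7% of all genes. The members were chosen with this comparison known, so nothing is read from these counts. The median log2 fold change of the 7 was -0.10 and 5 were below 0, beside a median of -0.01 and 51.8% below 0 over all genes.

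**Figure D2:**
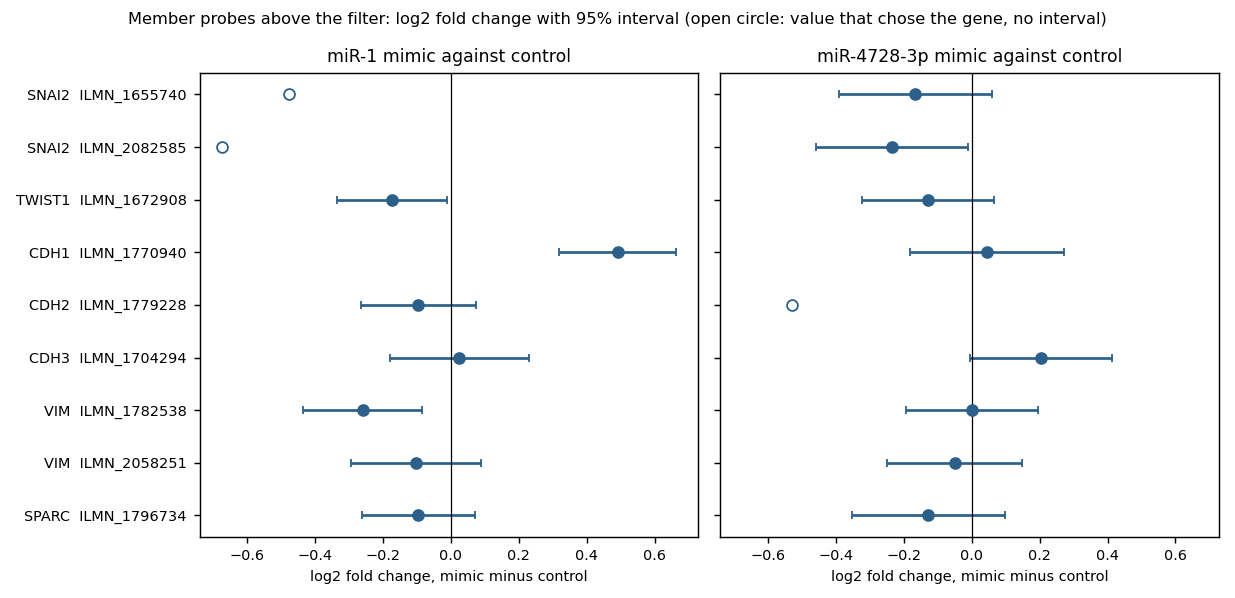
Log2 fold change (mimic minus control, horizontal axis) of each member probe above the filter in the miR-1 experiment (left) and the miR-4728-3p experiment (right), with the 95% interval from limma, unadjusted for the number of probes. Open circles mark the values that chose SNAI2 and CDH2 and carry no interval; CDH1 with miR-1, at 0.49, stands clear of 0.

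With the miR-4728-3p mimic, CDH2 was 1.44-fold lower, and none of the other 6 members tested passed the threshold. SNAI2 had lower means on both probes and CDH3 a higher mean, without passing, and the mean differences of CDH1 and VIM were close to 0. The cells of this experiment also differed strongly in interferon-induced genes. These genes were listed because they were known to move in this experiment, so their count is a description. All 9 of 9 measured, among them IFIT1, MX1 and OAS2, were higher with the mimic, beside 3.95% of all genes. Their median log2 fold change was 5.84. Their mean level was 12.82 to 13.59 over the mimic arrays and 7.26 to 8.21 over the controls. The part of this response in the member values was not tested. In the miR-1 experiment 0 of 7 interferon genes tested passed the threshold in limma, beside 2.69% of all genes. None had an unadjusted p under 0.05 in limma, beside 8.35% of all genes lower and 7.20% higher at that limit.

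CDH2 read 9.56 (lowest), 9.80 (median) and 9.94 (highest) in the 6 controls and 8.72, 9.28 and 9.61 in the 6 mimic arrays. Mimic array 3, at 9.61, was above control 4, at 9.56, and the other 5 mimic arrays lay below every control. Mimic array 2, at 8.72, was the lowest, and the mimic arrays were more spread than the controls. The means were 9.78 ± 0.15 in the control and 9.25 ± 0.32 with the mimic (SD, n = 6 each), a log2 fold change of -0.53. It became -0.42 without mimic array 2 and -0.60 without mimic array 3. The log2 fold change of CDH2, the value by which it was chosen, ranked 138 from the lowest of 11817 genes.

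The spread of CDH2 within a group ran against that of CDH1. The controls with the higher CDH2, controls 1, 2 and 3, read 9.67, 9.85 and 9.77 for CDH1, and controls 4, 5 and 6 read 10.10, 10.03 and 10.05. Mimic arrays 3, 4 and 5, with the higher CDH2 of their group, read 9.77, 9.81 and 9.76 for CDH1, whereas mimic arrays 1, 2 and 6 read 10.19, 10.05 and 10.17. This was noticed in the values and not tested, and the labels name no batch that divides the arrays this way.

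**Figure D3:**
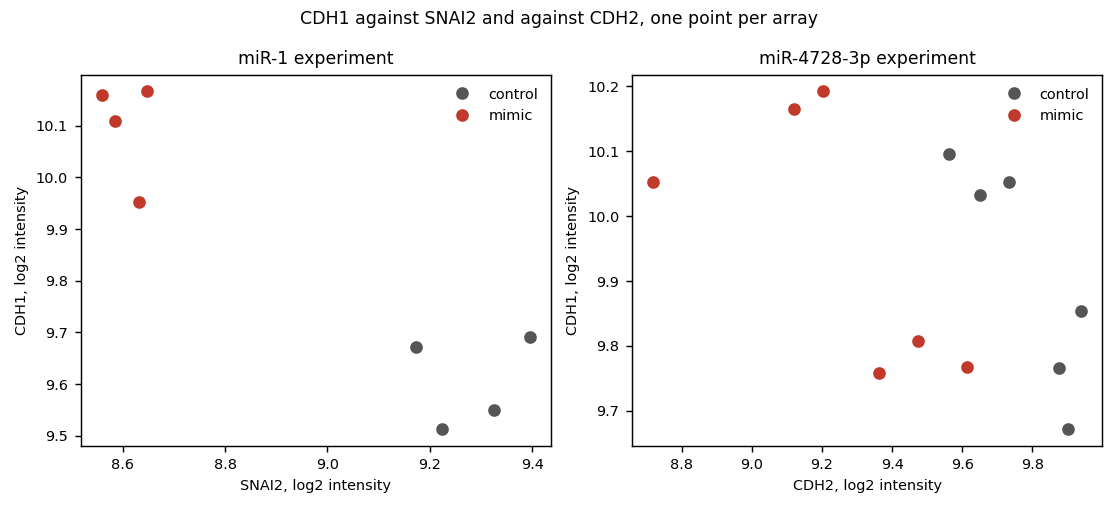
CDH1 against SNAI2 over the 8 arrays of the miR-1 experiment (left) and against CDH2 over the 12 arrays of the miR-4728-3p experiment (right), both axes in log2 intensity, 1 point per array. The miR-1 mimic arrays form a group apart with SNAI2 at 8.56 to 8.65 and CDH1 at 9.95 to 10.17, while in the miR-4728-3p experiment both groups span the range of CDH1.

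CDH1 itself read 9.67, 9.94 and 10.10 (lowest, median, highest) in the controls and 9.76, 9.93 and 10.19 with the miR-4728-3p mimic. The groups overlapped almost fully. The log2 fold change was 0.05 (95% interval -0.18 to 0.27), with an adjusted p of 0.912 in limma, and the interval leaves out a rise of the size seen with miR-1. Whether the response of CDH1 differed between the 2 mimics was not tested, since the experiments were run on different arrays and normalized apart. CDH3 read 10.38, 10.53 and 10.69 in the controls and 10.54, 10.69 and 10.95 with the mimic. Of its mimic arrays 3 lay above the highest control, and its log2 fold change of 0.20 ± 0.10 (SE; 95% interval -0.01 to 0.41) had an adjusted p of 0.333 in limma.

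Of the transcription factors, SNAI2 on its brighter probe read 9.90, 9.99 and 10.25 in the controls and 9.63, 9.75 and 10.10 with the miR-4728-3p mimic. Mimic arrays 2 and 3 lay among the controls and the other 4 lay below the lowest control. The log2 fold change was -0.23 ± 0.11 (SE; 95% interval -0.46 to -0.01), with an adjusted p of 0.273 in limma. On the other probe it was -0.17 with an adjusted p of 0.513 in limma. TWIST1 read 8.77, 8.93 and 9.01 in the controls and 8.69, 8.75 and 9.03 with the mimic. Its mimic arrays were tightly grouped below every control but for mimic array 6, the highest of all 12. The log2 fold change was -0.13 (95% interval -0.32 to 0.07), with an adjusted p of 0.577 in limma.

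VIM differed least, at 13.47 to 13.89 in the controls and 13.60 to 13.77 with the miR-4728-3p mimic. Its log2 fold change was 0.00 (95% interval -0.19 to 0.19), with an adjusted p of 0.999 in limma, and on the other probe it was -0.05. SPARC resembled TWIST1 in that 5 of 6 mimic arrays lay below every control and 1, mimic array 2 at 8.15, above them all. The 6 controls were close together, at 7.76 to 7.89, and the log2 fold change was -0.13 (95% interval -0.35 to 0.10), with an adjusted p of 0.651 in limma.

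Leaving CDH2 aside, 0 of the 6 members tested in the miR-4728-3p experiment passed the threshold in limma, where 7.77% of all genes tested did (3.82% downward and 3.95% upward), and 1, SNAI2, was lower at an unadjusted p under 0.05. No member, CDH2 included, had groups without overlap, beside 5.59% of all genes. The median log2 fold change of the 7 was -0.13 and 4 were below 0, beside a median of -0.02 and 56.1% below 0 over all genes.

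The genes whose values followed those of SNAI2 and CDH2 most closely were ranked by Pearson's r across the arrays of 1 experiment, as a description. Over the 8 arrays of the miR-1 experiment, the highest r with SNAI2 were those of HROB (0.993), KLF9 (0.993), FNDC3B (0.988), C19orf48P (0.985) and DBNDD2 (0.984), which all had lower means with the mimic, by 0.24 to 0.50 on the log2 scale. The lowest were KRT6C (-0.994), a keratin, TENT5B (-0.992), CDR2L (-0.986), ACLY (-0.985), an enzyme of fatty acid synthesis, and C1orf116 (-0.983), with higher means by 0.53 to 1.60. Because the arrays fall into a mimic and a control group, such values mostly record a gap between the groups. Among the members, TWIST1 (0.87) and VIM (0.83) ranked 252 and 422 from the highest of 11897 genes, and CDH1 (-0.93) ranked 65 from the lowest. SPARC stood at 0.66, CDH2 at 0.58 and CDH3 at -0.05. With each group's mean subtracted, r with SNAI2 was 0.82 for SPARC, 0.73 for TWIST1 and 0.46 for CDH2. It was 0.24 for CDH3, 0.14 for VIM and 0.03 for CDH1, so the values of VIM and CDH1 rested on the gap. All of these used the brighter SNAI2 probe. Its r with the other SNAI2 probe was 0.89 over the 8 arrays but -0.22 with each group's mean subtracted. The spread of SNAI2 within groups was thus not shared by its 2 probes, and nothing is read from the values within groups.

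For CDH2 over the 12 arrays of the miR-4728-3p experiment, the highest r were those of AZIN1 (0.986), FHL2 (0.962), PPP1CC (0.956), CDCA4 (0.950) and EVA1A (0.947). AZIN1 encodes an inhibitor of antizyme and FHL2 a LIM domain cofactor. The lowest were RASA2 (-0.945), PODXL (-0.936), DYNLT1 (-0.935), CHMP5 (-0.933) and RFX5 (-0.926). Among the members, r with CDH2 ran from SNAI2 (0.38) and TWIST1 (0.31) through VIM (-0.08) and SPARC (-0.09) to CDH1 (-0.55) and CDH3 (-0.59). With each group's mean subtracted, it was -0.70 for CDH1, -0.59 for SPARC, -0.26 for CDH3, -0.17 for TWIST1, -0.13 for VIM and -0.12 for SNAI2, so the positive values of SNAI2 and TWIST1 rested on the gap between the groups.

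The wider set of EMT genes was described with 7 lists, which also were drawn up with earlier results of these arrays known. With the miR-1 mimic, 2 of 91 list genes tested were lower (2.20%) and 5 higher (5.49%), beside 1.24% and 1.45% of all genes. With the miR-4728-3p mimic, 9 of 94 were lower (9.57%) and 4 higher (4.26%), beside 3.82% and 3.95% of all genes. The shares of all genes also apply beside the count of each list below. Nothing is read from these shares or counts, since the lists were not chosen blind. The genes with the largest changes were ID3 with miR-1 and PMEPA1 with miR-4728-3p, both on the list of the TGF-beta pathway. The interferon response described above moved together with the miR-4728-3p calls, and its part in them was not tested.

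**Figure D4:**
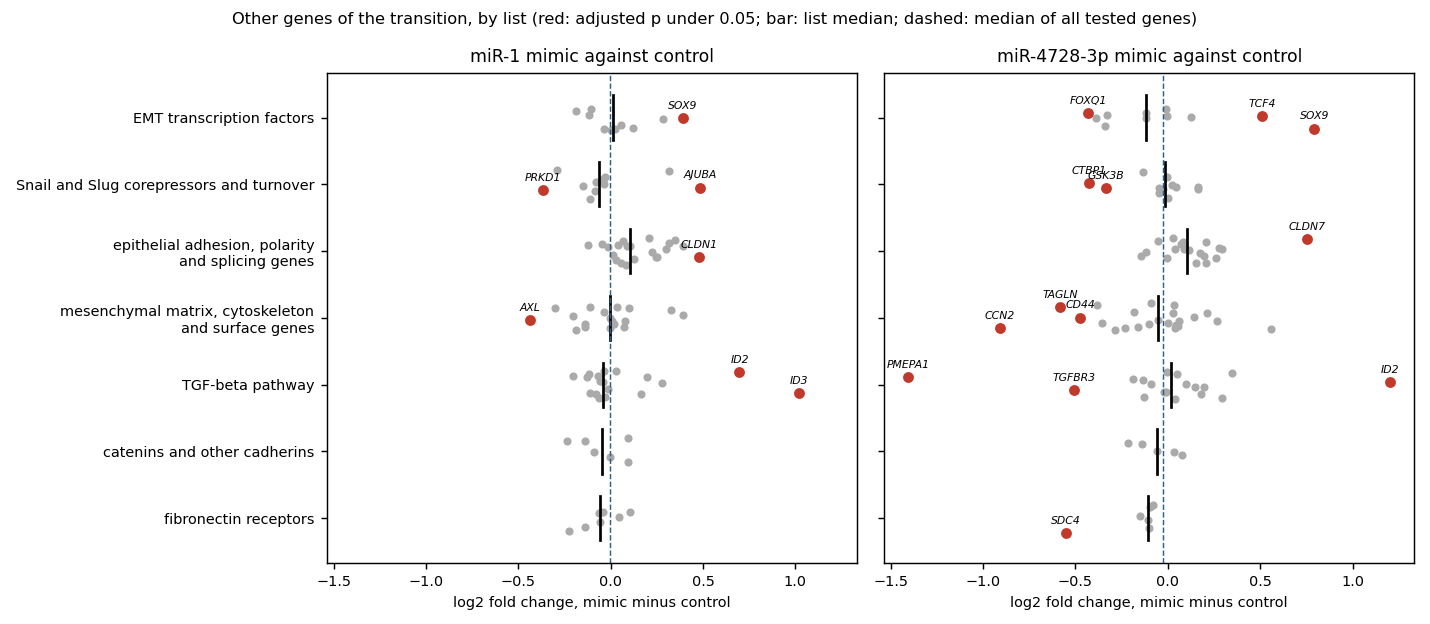
Log2 fold change (mimic minus control, horizontal axis) of every tested gene on the 7 EMT lists, for the miR-1 experiment (left) and the miR-4728-3p experiment (right). Red points passed an adjusted p of 0.05 in limma, black bars are list medians and the dashed line is the median of all tested genes; ID2 lies far to the right in both panels and PMEPA1 far to the left with miR-4728-3p.

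Among 14 other EMT transcription factors, 10 were tested with miR-1 and 1 was higher, SOX9, from 6.85 ± 0.14 to 7.25 ± 0.06 (SD, n = 4 each; log2 fold change 0.39, adjusted p of 0.0255 in limma). That call was lost when any of controls 1, 2 and 4 or mimic arrays 1, 3 and 4 was left out, with a highest adjusted p of 0.0879. With miR-4728-3p, 11 were tested. SOX9 was higher by 0.79 (adjusted p of 1.59e-05 in limma) and TCF4, which encodes the E2-2 protein, by 0.51 (adjusted p of 0.00576), or by 0.43 (adjusted p of 0.0542) without the dim controls 3 and 5. FOXQ1, a forkhead factor, was lower by 0.43 on the log2 scale, from 8.08 ± 0.28 to 7.65 ± 0.15 (SD, n = 6 each; adjusted p of 0.0291 in limma), and missed the threshold without control 1, 4 or 5 or mimic array 1 or 5 (highest adjusted p 0.0796). The medians of the list were 0.01 with miR-1 and -0.12 with miR-4728-3p. Other factors missed the threshold in both experiments, TCF3 at 0.12 with miR-1 and -0.39 with miR-4728-3p, SOX4 at 0.29 and -0.12, and LEF1 at -0.12 and -0.34, as did TWIST2 with miR-1, at -0.04.

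Snail and Slug act through corepressors and are turned over by kinases and ubiquitin ligases, and 12 of 14 such genes were tested in each experiment. With miR-1, AJUBA, a LIM protein known to bind Snail family factors, rose from 7.35 ± 0.13 to 7.83 ± 0.07 (SD, n = 4 each; log2 fold change 0.48, adjusted p of 0.00681 in limma). PRKD1, a kinase known to phosphorylate SNAI1, fell by 0.36 on the log2 scale (adjusted p of 0.0264 in limma), but not without any of controls 1, 3 and 4 or mimic arrays 1, 3 and 4 (highest adjusted p 0.0938). With miR-4728-3p, CTBP1, a corepressor of ZEB1, fell by 0.43 (adjusted p of 0.0191 in limma) and GSK3B, a kinase that marks Snail for degradation, fell by 0.34 (adjusted p of 0.0427). The call of CTBP1 was lost without control 1, control 3 or mimic array 5 (highest adjusted p 0.0568), and that of GSK3B was kept in only 3 of the 12 fits that left out an array, those without control 5 and mimic arrays 3 and 6 (highest adjusted p 0.119). The deacetylases HDAC1 and HDAC2 differed by -0.13 to -0.04 in the 2 experiments, and the polycomb subunit SUZ12 by -0.29 with miR-1 and 0.03 with miR-4728-3p.

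Of the epithelial adhesion, polarity and splicing genes, 21 were tested with miR-1, and 18 of them had a log2 fold change above 0, beside 48.2% of all genes. CLDN1, a claudin of tight junctions, was the one to pass, from 9.13 ± 0.15 to 9.61 ± 0.20 (SD, n = 4 each; log2 fold change 0.48, adjusted p of 0.0331 in limma), where 8 were higher and 0 lower at an unadjusted p under 0.05, a limit that 7.20% of all genes passed upward and 8.35% downward. It lost its call without any of controls 1, 2 and 4 or mimic arrays 2, 3 and 4 (highest adjusted p 0.107). JUP, the junction protein plakoglobin, and CLDN7 differed by 0.39 and 0.35 without passing (adjusted p of 0.0562 and 0.175 in limma), and EPCAM by 0.08. Over the 25 list genes on the array, those under the filter included, the mean level did not overlap. It was 7.57 to 7.62 in the controls against 7.72 to 7.73 after the mimic. The basal and luminal marker lists described below did not overlap either, also with higher levels after the mimic. The median log2 fold change of the 21 tested genes was 0.11. With miR-4728-3p it was 0.10 over 20 genes, of which 16 were above 0, beside 43.9% of all genes, and CLDN7 passed, with a log2 fold change of 0.76 (adjusted p of 0.00679 in limma) that became 0.56 (adjusted p of 0.0555) without the dim controls 3 and 5. DSP, the desmosomal protein desmoplakin, EPCAM and JUP differed by 0.09, -0.05 and 0.20 there without passing. The groups overlapped in the mean level of the 25 list genes on the array, at 7.83 to 8.0 in the controls against 7.98 to 8.09 after the mimic.

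Mesenchymal matrix, cytoskeleton and surface genes gave 1 lower call of 18 tested with miR-1 and 3 of 23 with miR-4728-3p, and no higher call in either, beside 1.24% and 3.82% of all genes lower. At an unadjusted p under 0.05 the list was mixed, with 3 lower and 2 higher with miR-1 and 6 lower and 3 higher with miR-4728-3p. Over all genes 8.35% were lower and 7.20% higher with miR-1 at that limit, and 11.2% and 8.11% with miR-4728-3p. With miR-1, AXL, a receptor tyrosine kinase, fell from 8.67 ± 0.09 to 8.23 ± 0.22 (SD, n = 4 each; log2 fold change -0.44, adjusted p of 0.0389 in limma). It was called in only 2 of the 8 fits that left out an array, those without mimic arrays 1 and 4 (highest adjusted p 0.119). With miR-4728-3p, CCN2, the matricellular growth factor CTGF, fell by 0.91 (adjusted p of 6.7e-06 in limma), TAGLN, the actin-binding protein transgelin, by 0.58 (adjusted p of 0.000626) and CD44, the hyaluronan receptor, by 0.47 (adjusted p of 0.00266), each in all 12 fits that left out an array. TAGLN went the other way with miR-1, at 0.39, without passing (adjusted p of 0.0554 in limma). As the mean of its tested probes CD44 changed by -0.30 and missed the threshold (adjusted p of 0.0796 in limma). TGFBI, a matrix protein induced by TGF-beta, and S100A4, a calcium-binding protein, differed by -0.14 and 0.01 with miR-1 and by -0.09 and 0.21 with miR-4728-3p. CD44 differed by -0.19 with miR-1, and ACTA2, smooth muscle actin, by -0.30 with miR-1 and 0.06 with miR-4728-3p, without passing. The fibrillar collagen genes COL1A1, COL1A2 and COL3A1 lay under the filter in both experiments. The list medians were -0.00 and -0.05.

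In the TGF-beta pathway, the inhibitors of differentiation ID2 and ID3, helix-loop-helix proteins that lack a DNA-binding region, were higher with miR-1. ID3 rose from 9.63 ± 0.04 to 10.65 ± 0.10 (SD, n = 4 each; log2 fold change 1.02, adjusted p of 7.09e-06 in limma) and ID2 from 6.99 ± 0.15 to 7.69 ± 0.22 (log2 fold change 0.70, adjusted p of 0.00399). ID1 differed by 0.28 without passing (adjusted p of 0.253 in limma). With miR-4728-3p, ID2 rose by 1.20 (adjusted p of 2.19e-06 in limma), while ID3 differed by 0.18 and ID1 by 0.30 without passing. PMEPA1, a TGF-beta target that restrains the pathway, fell from 9.71 ± 0.27 to 8.30 ± 0.16 (SD, n = 6 each; log2 fold change -1.41, adjusted p of 6.25e-09 in limma), and the coreceptor TGFBR3 fell by 0.51 (adjusted p of 0.00135). TGFBR2, the ligand-binding receptor, differed by -0.08 and -0.19, and SMAD4 by -0.03 with miR-1. Of 18 genes tested in each experiment, 16 with miR-1 and 15 with miR-4728-3p did not pass, and the medians were -0.04 and 0.02.

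None of the catenins and other cadherins passed in limma, with 6 tested for miR-1, of which 1 was lower at an unadjusted p under 0.05, and 5 tested for miR-4728-3p, of which 0 were. CTNNA1 and CTNNB1, which tie cadherins to actin, differed by 0.09 and -0.09 with miR-1 and by 0.08 and 0.04 with miR-4728-3p, and CTNNAL1, a relative of alpha-catenin, by -0.00 and -0.14. Of the fibronectin receptors, 7 were tested with miR-1 and 0 passed, with 1 lower at an unadjusted p under 0.05, while of 6 tested with miR-4728-3p the proteoglycan SDC4 passed, lower by 0.55 on the log2 scale (9.58 ± 0.20 to 9.03 ± 0.20, SD, n = 6 each; adjusted p of 0.00228 in limma). The integrins ITGB1 and ITGB5 differed by -0.04 and -0.22 with miR-1 and by -0.10 and -0.15 with miR-4728-3p, ITGAV by 0.05 with miR-1 and ITGA5 by -0.10 with miR-4728-3p, without passing.

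Markers were set beside these values as a check of the labelled cells. Of 9 basal genes, KRT17, KRT6A and TP63 matched no probe and were not measured. The 6 measured, KRT5, KRT14, ITGA6, ITGB4, EGFR and LAMB3, were all above the filter in both experiments. Of 9 luminal genes, EPCAM, KRT8, KRT18, GATA3 and FOXA1 were above it in both, and KRT19, ELF5, ESR1 and PGR lay under it in both. With miR-1, KRT14 was higher by 0.72 (adjusted p of 0.000213 in limma) and so were the luminal genes FOXA1 by 0.46 (adjusted p of 0.0197) and KRT8 by 0.53 (adjusted p of 0.0292). The luminal genes KRT18, EPCAM and GATA3, at -0.14, 0.08 and 0.02, did not pass, nor did 5 of the 6 basal genes. FOXA1 missed the threshold without control 1 or 4 or mimic array 1 or 4, and KRT8 without any of controls 2, 3 and 4 or mimic arrays 1, 2 and 3 (highest adjusted p 0.0852 and 0.0821). With miR-4728-3p, FOXA1 was lower by 0.43 (adjusted p of 0.00645 in limma), the only call among the 5 luminal genes tested. Another of these 5 was higher at an unadjusted p under 0.05 in limma. In all, 3 of the 5 were below 0, and their median was -0.05. Of 6 basal genes 0 passed, with 1 lower at an unadjusted p under 0.05. Of 8 fibroblast genes, DCN passed the filter in both experiments and PDGFRA with miR-4728-3p, and of 5 endothelial genes PECAM1 did, without a call. Of 5 leukocyte genes measured, CD14 and CD68 were above the filter, while PTPRC and CD3E lay under it. CD68 was higher with miR-4728-3p by 1.31 (adjusted p of 1.94e-06 in limma), and CD14 had a log2 fold change below 0 there, without passing. The part of these differences in the member values was not tested.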

How the data were processed

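RNA of 20 MCF 10A cultures was measured on 1-colour Illumina bead arrays. For each experiment the authors deposited linear intensities of every probe, once without normalization and once normalized on the BASE server by a method not given in the sources used here. Detection p-values and control probes are in neither table. From the unnormalized intensities the background was removed by normexp with an offset of 50, followed by quantile normalization of the arrays of 1 experiment and the log2 (R 4.3.3, limma 3.58.1). A probe was tested if its mean exceeded the median over all probes and arrays. The mimic was compared with its control by lmFit and eBayes, and p-values were adjusted by Benjamini and Hochberg over all tested probes. Where several probes of a gene were tested, the one with the highest mean was used for it. Names came from the platform annotation: 30113 probes had 1 name, 8 several and 17202 none in the miR-1 experiment, and 27578, 13 and 21212 in the miR-4728-3p experiment. Groups followed the labels, which name no slide, scan or batch. No 2 arrays held the same values.

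The members, lists, tests and alternatives were chosen with earlier results of these data known. The text names all members, up to 5 called genes and the 3 brightest others of an EMT list (with some of their values in the other experiment), and the 5 genes most and least like SNAI2 or CDH2. Of 178 listed symbols, 10 matched no probe. The step was also run on simulated arrays, and no result above rests on that run. Alternatives were no background correction, an offset of 16, the authors' intensities, no filter, a filter at the 75th percentile, array weights, a block for the replicate number, eBayes with a trend and robust priors, the mean of a gene's probes, the other probe of a gene, and leaving out each array. Leaving out both dimmest controls of the miR-4728-3p experiment was added after seeing the data. Figures were drawn with matplotlib 3.10.9 and pandas 2.3.3 in Python 3.11.15.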

Additional observations from a re-analysis of the deposited data

Results flagged for a closer look

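Of 56 groups of member probes and arrays examined, 2 held an array far from the rest of its group, where chance alone would flag about 1 group in 20. For TWIST1, miR-4728-3p mimic array 6 read 9.03 on the log2 scale, against 8.76 for the next highest array and 8.69 for the lowest of the group. For SNAI1, whose probe lay under the intensity filter, miR-4728-3p mimic array 2 read 6.59, against 6.12 for the next highest and 5.94 for the lowest.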

How the results depend on the processing

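CDH1 was the member called with miR-1 under all 10 alternatives and in all 8 fits that left out an array, and no member other than CDH2, which was not tested, was called with miR-4728-3p under 11 alternatives and 12 such fits. Counts over all genes moved more. With miR-1, an offset of 16 gave 84 lower and 102 higher genes in place of 147 and 173, and 1 lower gene on the EMT lists in place of 2. The replicate number as a block gave 37 lower and 68 higher genes, and 0 lower and 2 higher on the lists in place of 2 and 5. Without 1 array at a time, the counts ran from 75 to 119 lower and 91 to 153 higher genes, and from 0 to 2 lower and 3 to 5 higher on the lists. Deviations of same-numbered mimic and control arrays correlated at -0.39 to 0.04 (miR-1) and -0.12 to 0.06 (miR-4728-3p), so the numbers were not taken to pair the cultures. Differently numbered arrays correlated at -0.36 to 0.42 (miR-1) and -0.22 to 0.24 (miR-4728-3p). Whether some arrays share a structure that the labels do not name was not tested. Without both dimmest miR-4728-3p controls, 2 genes on the lists were higher in place of 4. AJUBA with miR-1 lost its call under the block (adjusted p 0.0520 in limma), and TCF4 was removed by the filter at the 75th percentile. SNAI2 with miR-1 changed by -0.58 as the mean of its probes and by -0.48 on its dimmer probe alone. Values near 0 changed sign: VIM with miR-4728-3p became -0.018 with array weights, -0.025 as the mean of its probes, -0.050 on its other probe and -0.040 without both dimmest controls, and ran from -0.042 to 0.041 without 1 array at a time. CDH3 with miR-1 ran from -0.042 to 0.075 and CDH1 with miR-4728-3p from -0.0033 to 0.085 in such fits. Precision was limited by the number of arrays.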
